A study of Mus musculus with 5 samples.

Results

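Desmosomes are the spot-like junctions that couple the keratin filaments of neighboring epithelial cells. Their core is built from desmosomal cadherins (desmogleins and desmocollins) that span the membrane, armadillo proteins (plakoglobin and plakophilins) that bind the cadherin tails, and the plakin desmoplakin, which links the plaque to keratin. Simple columnar epithelium such as that of the colon is known for desmoglein 2, desmocollin 2 and plakophilin 2, whereas stratified squamous epithelium, as in skin and the anal canal, adds desmoglein 1, desmoglein 3, desmocollin 3 and plakophilin 1. The level of 10 desmosome genes, of 52143 genes in the table, was therefore examined in colon tumors. The members were found by gene symbol, each symbol named 1 row, and all 10 passed the low-value filter described below, as did 10338 genes in all. By their known use, Dsp, Jup, Pkp3 and Perp were treated as shared by both kinds of epithelium, Dsg2, Dsc2 and Pkp2 as genes of simple epithelium, and Dsg3, Dsc3 and Pkp1 as genes of squamous epithelium.

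RNA-Seq of tumors is given for 2 samples of the Control group, numbered 1 and 4, and for 3 of the SIGLEC12 group, numbered 2, 3 and 4. The series text speaks of several mice per condition, but the labels name no mouse for a sample, so the spread between samples may be partly technical. All mice were female and carried Villin1-Cre-ERT, a tamoxifen-activated Cre recombinase driven by the promoter of villin, a gene of columnar intestinal epithelium. The SIGLEC12 mice carried in addition 1 conditional allele of human SIGLEC12, placed at the ROSA26 locus under a CAG promoter and switched on by Cre, and the Control mice were littermates with Villin1-Cre-ERT alone. Both groups received tamoxifen (10 mg/ml) for 5 days from 8 weeks of age, azoxymethane (AOM, a carcinogen) at 10 mg/kg, and repeated cycles of 5 days of 2.0% dextran sulfate sodium (DSS, an agent that damages colonic mucosa) with 14 days of recovery, and tumors were taken on day 87. Levels are the authors' log2(TPM + 1), where TPM is a transcript abundance corrected for length and set relative to all RNA of the sample. Levels of different genes can thus be compared, with the limit that which transcripts a value covers is not stated. Errors are SD between samples, and read depth behind each value is unknown.

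The samples differed in make-up before any member was compared. Protein-coding genes took 5.70% of the TPM total in Control replicate 1, 6.73% in Control replicate 4 and 8.75% to 9.72% in SIGLEC12, so values are also given after each sample was rescaled to the same protein-coding total ("rescaled"). Control replicate 1 stood apart in its epithelial markers. Of 14 squamous markers the summed level was 2724 TPM in Control replicate 1 and 428 to 976 TPM in the other 4 samples, and of 12 columnar markers it was 283 TPM against 795 to 1119 TPM. The summed squamous level was thus 9.63 times the columnar level in Control replicate 1, and 0.465 to 1.07 times in the others. Most of the squamous sum in Control replicate 1, and so of this ratio, came from Krt14 (1144 TPM), Krt5 (595 TPM) and Krt6a (574 TPM). Krt13, the next highest marker there, was at 253 TPM, within the 131 to 286 TPM of the others. Control replicate 1 was the highest sample for 8 of the 13 tested squamous markers, against 5.58% of all tested genes. It was the lowest for 2 (70.2% of all tested genes). These were Krt4 and Lor, at -1.94 and -1.46 log2 units from the median of the others. The defining squamous markers Krt5, Krt14 and Trp63 were nevertheless detected in all 5 samples, which carry the label colon. Krt5 was at 9.22 in Control replicate 1 and at 5.69 to 7.16 in the others, Krt14 at 10.16 and 5.69 to 7.64, and Trp63, the master regulator of stratified epithelium, at 3.80 and 2.20 to 2.85. Of the 11 tested columnar markers Control replicate 1 was the lowest sample for 10, against 70.2% of all tested genes. Epcam was at 4.92 in Control replicate 1 and 6.31 to 7.06 in the others, and Vil1 at 2.84 and 4.05 to 4.91. Cdh17 was at 2.99 and 4.46 to 5.67, and Cdx2, which did not pass the filter, at 0.19 and 0.71 to 2.04. The tested columnar marker that was not lowest there was Slc26a3, a chloride transporter of surface colonocytes. Its level was 3.32 in Control replicate 1 and 4.61 in the other Control sample. Both were above the 2.04 to 2.82 of SIGLEC12 (log2 fold change -1.51, limma adjusted p = 0.0974). No listed marker was at 0 in any sample. The part of this make-up in the results below was not tested, and in bulk tissue fewer cells of a type and less RNA per cell cannot be told apart.

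Dsp encodes desmoplakin and Jup encodes plakoglobin, which every desmosome uses. Their promoters are shown because both genes are shared components with near-parallel profiles, and because they are the 2 members with an entry in the promoter table used here. Each is the 250 bases before the RefSeq start on GRCm38.p6, 5′ to 3′ on the strand of the gene, with capitals marking matches to the GC box letters GGGCGG on either strand.

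Dsp (chr13:38151044-38151293, plus strand): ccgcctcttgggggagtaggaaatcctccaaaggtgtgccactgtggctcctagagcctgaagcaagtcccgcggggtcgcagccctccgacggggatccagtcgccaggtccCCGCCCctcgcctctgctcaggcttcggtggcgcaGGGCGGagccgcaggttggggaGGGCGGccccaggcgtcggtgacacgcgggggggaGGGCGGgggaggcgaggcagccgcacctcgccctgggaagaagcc
Jup (chr11:100397791-100398040, minus strand): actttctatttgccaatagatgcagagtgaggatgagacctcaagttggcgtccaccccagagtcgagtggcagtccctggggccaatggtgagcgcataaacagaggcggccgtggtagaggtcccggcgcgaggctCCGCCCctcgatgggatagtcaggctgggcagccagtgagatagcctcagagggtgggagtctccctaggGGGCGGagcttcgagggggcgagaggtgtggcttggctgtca

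The Dsp window held 4 GC box matches and the Jup window 2, and 32.7% of 32851 windows of the same length held at least 1. Neither window matched the AP-1 letters TGANTCA (6.75% of all windows), the E-box letters CAGGTG (17.2%) or the TATA letters TATAAA (12.4%) on either strand. GC content was 72.4% for Dsp and 62.0% for Jup, against a median of 52.4% over all windows. These matches are letters in a window, and no binding was measured.

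Dsp (ENSMUSG00000054889, GRCm38 chromosome 13, 38151294 to 38198577, plus strand) was at 7.07 in Control replicate 1 and 5.49 in Control replicate 4, and at 5.84, 4.94 and 5.80 in SIGLEC12 replicates 2, 3 and 4. Control replicate 1 was the highest and SIGLEC12 replicate 3 the lowest, and the groups overlapped. The SIGLEC12 minus Control log2 fold change of Dsp was -0.75 (SE 0.52; exact permutation p = 0.5, adjusted p = 0.311 by limma). The Control mean was 6.28 ± 1.12 (SD, n = 2), and the mean over SIGLEC12 was 5.53 ± 0.51 (SD, n = 3). Jup (ENSMUSG00000001552, chromosome 11, 100368958 to 100397763, minus strand) was at 6.86 and 5.72 in Control and at 5.84, 5.27 and 5.85 in SIGLEC12, the same order of extremes. Its log2 fold change was -0.64 (SE 0.40; exact permutation p = 0.4, adjusted p = 0.271 by limma). Centered on their own means, the Dsp and Jup profiles lay 0.19 log2 units apart (root mean square over the 5 samples), one of the smallest distances among the members. The level of Dsp was 0.791 to 1.16 times that of Jup in the 5 samples. The Jup row names a non-coding transcript, and which transcripts its value covers is not stated.

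Pkp3 encodes plakophilin 3, which is found in both simple and stratified epithelium, and Perp encodes a membrane protein of desmosomes that is a target of p63 in stratified epithelium. Pkp3 (ENSMUSG00000054065, chromosome 7, 141078218 to 141090510, plus strand) was at 4.15 and 3.45 in Control and at 3.67, 3.43 and 4.07 in SIGLEC12, the narrowest range of the 10 members (0.71 log2 units). Its log2 fold change was -0.07 (SE 0.30; exact permutation p = 0.7, adjusted p = 0.859 by limma), far within the spread between samples. Perp (ENSMUSG00000019851, chromosome 10, 18845020 to 18857073, plus strand) was at 7.67 and 5.69 in Control and at 6.36, 5.97 and 6.28 in SIGLEC12. Its 2 Control samples thus lay on either side of all 3 SIGLEC12 samples, and its log2 fold change was -0.48 (SE 0.56; exact permutation p = 0.7, adjusted p = 0.528 by limma). Perp was the most abundant member in 4 of the 5 samples (202 TPM in Control replicate 1, 61.5 to 81.1 TPM in SIGLEC12), and came second to Jup in Control replicate 4 (50.5 and 51.7 TPM).

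**Figure D1:**
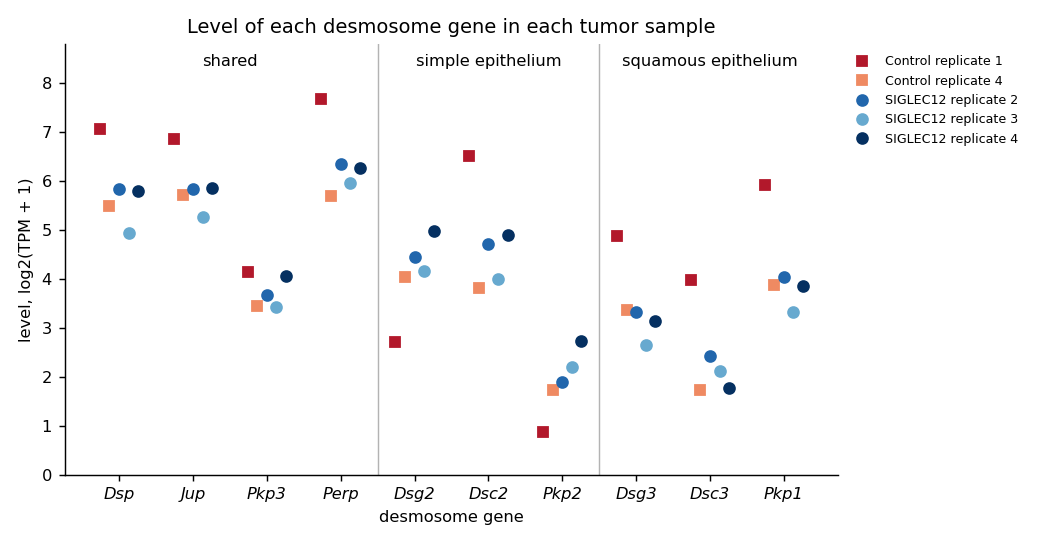
Level of each of the 10 desmosome genes, as log2(TPM + 1) on the vertical axis, in each of the 5 tumor samples (squares, Control; circles, SIGLEC12), grouped by the kind of epithelium they are known from. Control replicate 1 was the highest sample for 8 genes and the lowest for Dsg2 (2.72) and Pkp2 (0.87).

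The cadherins Dsg2 and Dsc2 had opposite signs. Dsg2, which encodes the desmoglein of all desmosome-bearing tissues (ENSMUSG00000044393, chromosome 18), was at 2.72 and 4.04 in Control and at 4.46, 4.17 and 4.97 in SIGLEC12. Every SIGLEC12 sample was above both Control samples, with Control replicate 4 (4.04) just below SIGLEC12 replicate 3 (4.17). The log2 fold change of Dsg2 was 1.16 (SE 0.44; exact permutation p = 0.1, adjusted p = 0.126 and unadjusted p = 0.0361 by limma; with 2 against 3 samples the exact p cannot go below 0.1). Dsc2, which encodes desmocollin 2, the partner of desmoglein 2 in simple epithelium but also present in stratified epithelium (ENSMUSG00000024331, chromosome 18), was at 6.50 and 3.82 in Control and at 4.72, 4.004 and 4.91 in SIGLEC12. The Control samples were the highest and the lowest of the 5, and the log2 fold change was -0.62 (SE 0.75; exact permutation p = 0.8, adjusted p = 0.540 by limma). In TPM, Dsc2 was 16.1 times Dsg2 in Control replicate 1 and 0.851 to 1.21 times Dsg2 in the other 4 samples. Of all pairs of members, the Dsg2 profile lay among the farthest from that of Dsc2 (1.54 log2 units) and nearest to that of Pkp2 (0.25).

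Dsg3, which encodes desmoglein 3, the cadherin of the lower layers of stratified epithelium and the pemphigus vulgaris antigen (ENSMUSG00000056632, chromosome 18), was at 4.88 and 3.36 in Control and at 3.33, 2.65 and 3.15 in SIGLEC12. All SIGLEC12 samples were below both Control samples, with Control replicate 4 just above SIGLEC12 replicate 2. The log2 fold change of Dsg3 was -1.08 (SE 0.46; exact permutation p = 0.1, adjusted p = 0.151 and unadjusted p = 0.0547 by limma). Dsc3, which encodes the basal-layer desmocollin (ENSMUSG00000059898, chromosome 18), was at 3.97 and 1.74 in Control and at 2.42, 2.12 and 1.78 in SIGLEC12, so that Control held both extremes. Its log2 fold change was -0.75 (SE 0.61; exact permutation p = 0.7, adjusted p = 0.379 by limma). Dsc2 remained the main desmocollin in every sample, and Dsc3 made up 14.0% of the Dsc2 and Dsc3 TPM in Control replicate 1 and 7.73% to 18.2% in the others. The desmocollin balance in Control replicate 1 was thus within the range of the other samples.

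The desmoglein balance was not. Dsg3 made up 83.6% of the Dsg2 and Dsg3 TPM in Control replicate 1, 37.5% in Control replicate 4 and 30.1%, 23.7% and 20.5% in SIGLEC12 replicates 2, 3 and 4. The desmoglein 1 genes of mouse (Dsg1a, Dsg1b and Dsg1c, cadherins of the upper squamous layers) were then included in the sum, but not Dsg4 (at most 0.607 TPM). Within that sum the desmoglein 1 genes took 64.8% in Control replicate 1 and 9.29% to 21.5% in the other samples. Dsg2 took 5.78% against 54.8% to 68.9%. Dsg3 took 29.4% against 17.8% to 34.0%, so its share of this wider sum was within the range of the others. Dsg1a, Dsg1b and Dsg1c are close copies, so the split among them is uncertain and their sum is used for these shares. These shares are ratios within a sample and do not depend on how the sample is scaled.

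Plakophilin 1 binds and clusters desmoplakin in suprabasal squamous cells, whereas plakophilin 2 is the plakophilin of simple epithelium and heart. Pkp1 (ENSMUSG00000026413, chromosome 1, 135871395 to 135919207, minus strand) was at 5.92 and 3.88 in Control and at 4.05, 3.33 and 3.86 in SIGLEC12. Control replicate 1 was far above the rest, and the other Control sample lay among the SIGLEC12 samples. The log2 fold change of Pkp1 was -1.15 (SE 0.58; exact permutation p = 0.2, adjusted p = 0.198 by limma). Pkp2 (ENSMUSG00000041957, chromosome 16, 16213318 to 16272712, plus strand) was the lowest or next to lowest member in every sample, at 0.87 and 1.73 in Control and at 1.90, 2.19 and 2.73 in SIGLEC12. All SIGLEC12 samples were above both Control samples, and the log2 fold change was 0.98 (SE 0.34; exact permutation p = 0.1, adjusted p = 0.112 and unadjusted p = 0.0250 by limma). Pkp1 took 77.2% of the plakophilin TPM in Control replicate 1, 52.8% in Control replicate 4 and 38.8% to 51.7% in SIGLEC12, and Pkp2 took 1.07%, 8.90% and 9.12% to 16.2%. Pkp1 TPM was 72.4 times Pkp2 TPM in Control replicate 1 and 2.40 to 5.93 times in the other samples. The first ratio rests on a Pkp2 level of 0.82 TPM, below the 1 TPM of the filter. The Pkp2 row names a retained-intron transcript, and which transcripts its value covers is not stated. Its rank, shares and ratios are therefore uncertain.

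**Figure D2:**
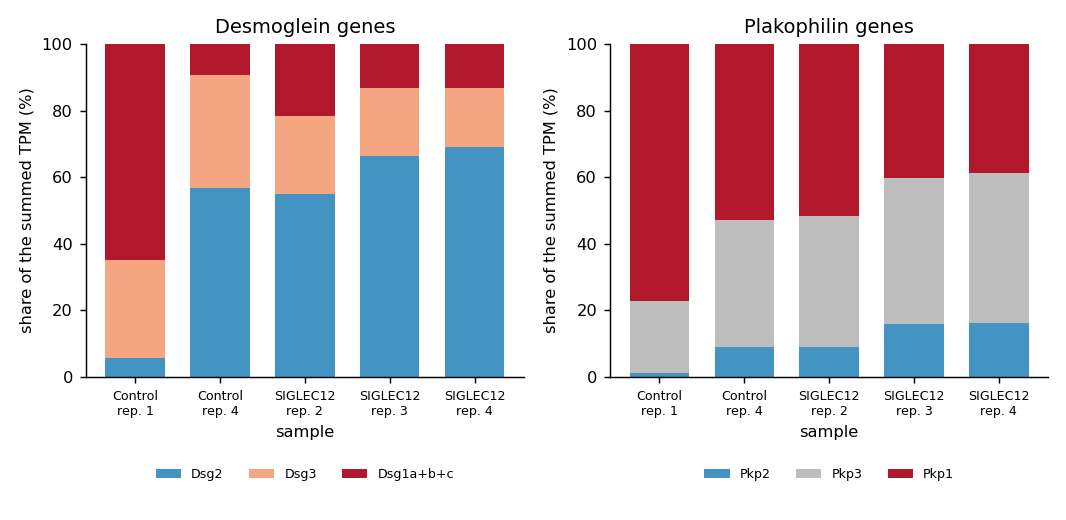
Share of the summed TPM (vertical axis, percent) taken by the desmoglein genes other than Dsg4 (left) and the plakophilin genes (right) in each tumor sample. Dsg2 took 5.78% of desmoglein TPM in Control replicate 1 and at least 54.8% in the other 4 samples, and Pkp1 took 77.2% of plakophilin TPM there and at most 52.8% elsewhere.

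Across the members, the group comparison gave 2 genes that were higher in SIGLEC12 at an unadjusted p under 0.05, Dsg2 and Pkp2, and 0 that were lower (limma). Over all 10338 tested genes, 33.4% were higher and 0.909% were lower at that threshold. At a limma adjusted p under 0.05 and at least 2-fold, 0 members were called, as were 0% of all genes. The groups did not overlap for 3 members, with Dsg2 and Pkp2 higher (54.1% of all genes) and Dsg3 lower (1.67% of all genes). In all, 8 of the 10 members had a negative log2 fold change, against 12.8% of all tested genes, and the median over the members was -0.63 against 0.38 over all genes.

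Rescaling moved the median of all genes to 0.01 and that of the members to -1.17. The 2 calls in the upward direction were then lost, with log2 fold changes of 0.65 for Dsg2 (limma unadjusted p = 0.146) and 0.62 for Pkp2 (limma unadjusted p = 0.0900), against 4.45% of all genes called higher. In their place 3 members were lower at a limma unadjusted p under 0.05, against 6.31% of all genes. They were Jup at -1.18 (SE 0.44), Dsg3 at -1.59 (SE 0.53) and Pkp1 at -1.68 (SE 0.66), with limma unadjusted p = 0.0390, 0.0247 and 0.0461 and adjusted p = 0.457 for each. After rescaling, the groups did not overlap for 4 members, all lower (Dsp, Jup, Dsg3 and Pkp1, exact permutation p = 0.1 each; 16.8% of all genes), and 0 members were higher without overlap (15.6% of all genes). Rescaled log2 fold changes were negative for 8 members, against 48.9% of all genes.

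Control replicate 1 was the highest of the 5 samples for 8 of the 10 members and the lowest for the other 2, Dsg2 and Pkp2, a comparison chosen after the values were seen. Among all tested genes it was the highest sample for 5.58% and the lowest for 70.2%. The same 8 and 2 members were at its extremes after rescaling, when it was the highest sample for 20.8% and the lowest for 35.3% of all genes. It lay at least 1 log2 unit above the median of the other 4 samples for 7 members, against 1.68% of all genes, and for 8 members after rescaling, against 3.66%. The distance to that median was 2.14 for Dsc2, 2.05 for Pkp1, 2.02 for Dsc3, 1.64 for Dsg3, 1.55 for Perp, 1.43 for Dsp, 1.08 for Jup and 0.58 for Pkp3, and it was -1.18 for Pkp2 and -1.60 for Dsg2. In TPM, Dsc3 was 5.07 times, Dsc2 4.45 times and Pkp1 4.37 times the median of the other samples, while the other samples held 3.41 times its Dsg2 and 3.84 times its Pkp2. The summed TPM of the 10 members was 667 in Control replicate 1 and 192 to 293 in the other samples.

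Without Control replicate 1, 0 members were called in either direction at a limma unadjusted p under 0.05, against 13.9% of all genes higher and 1.86% lower. That fit has 1 Control sample, which is assumed to vary like the SIGLEC12 samples. The median over the members was then 0.32 against 0.26 over all genes, and 7 of the 10 log2 fold changes were positive. Dsp changed from -0.75 to 0.04, Perp from -0.48 to 0.51, Dsc2 from -0.62 to 0.72 and Dsc3 from -0.75 to 0.37. Dsg2 and Pkp2 stayed positive at 0.49 (SE 0.36) and 0.55 (SE 0.34), and Jup, Dsg3 and Pkp1 stayed negative at -0.07 (SE 0.34), -0.32 (SE 0.31) and -0.13 (SE 0.34). Without Control replicate 4, where Control replicate 1 alone stood for the group, 7 members passed the limma adjusted threshold, with Dsg2 (1.82) and Pkp2 (1.41) higher and Perp (-1.47), Dsc2 (-1.96), Dsg3 (-1.83), Dsc3 (-1.86) and Pkp1 (-2.17) lower, and so did 10.2% of all genes. At a limma unadjusted p under 0.05 that fit called 2 members higher (42.7% of all genes) and 7 lower (2.69% of all genes).

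**Figure D3:**
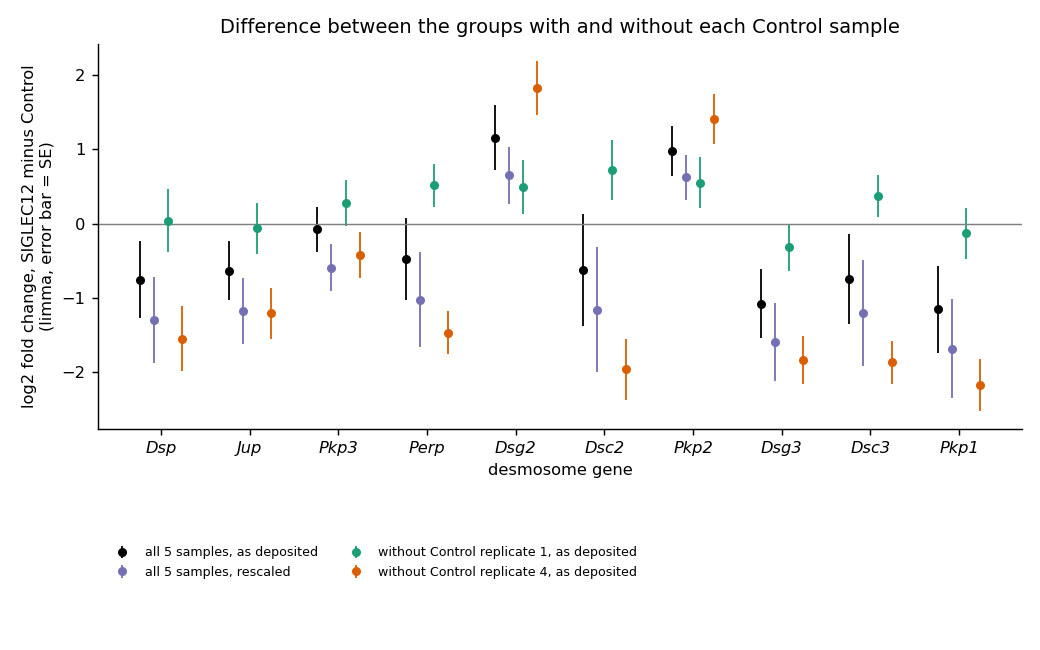
Log2 fold change (SIGLEC12 minus Control, vertical axis) of each desmosome gene with its SE from limma, from all 5 samples as deposited or rescaled and from fits that leave out 1 Control sample. Without Control replicate 1 the values lie between -0.32 (Dsg3) and 0.72 (Dsc2), and without Control replicate 4 they reach -2.17 (Pkp1) and 1.82 (Dsg2).

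Among the other 4 samples, the members had no common order of the groups. Their ranges had to be narrower there, because Control replicate 1 was an extreme sample for every member. SIGLEC12 replicate 3 was the lowest of all 5 samples for Dsp, Jup, Pkp3, Dsg3 and Pkp1. SIGLEC12 replicate 4 was the highest for Dsg2 (30.4 TPM) and Pkp2 (5.65 TPM), and it had the highest summed columnar marker level (1119 TPM). SIGLEC12 replicate 2 had the highest Dsc3 (4.35 TPM) and Pkp1 (15.5 TPM) of the 4, and the highest squamous marker sum of the 4 (976 TPM). Dsg3, the other squamous member, was instead highest of the 4 in Control replicate 4 (9.27 TPM, against 9.04 TPM in SIGLEC12 replicate 2). The shared members Dsp (56.3 TPM) and Perp (81.1 TPM) were also highest of the 4 in SIGLEC12 replicate 2. In the order of mean levels in SIGLEC12, Perp (6.20 ± 0.21, SD, n = 3) came first, followed by Jup (5.65 ± 0.33) and Dsp (5.53 ± 0.51), Dsc2 (4.54 ± 0.48) and Dsg2 (4.53 ± 0.41), Pkp1 (3.75 ± 0.38) and Pkp3 (3.72 ± 0.32), Dsg3 (3.04 ± 0.35), Pkp2 (2.28 ± 0.42) and Dsc3 (2.11 ± 0.32). The neighbors Jup and Dsp, Dsc2 and Dsg2, Pkp1 and Pkp3, and Pkp2 and Dsc3 differed by less than the SD between samples, and the other neighbors by more. Desmosome genes of squamous epithelium were measured in every tumor sample, with Pkp1 at 9.03 to 15.5 TPM and Dsg3 at 5.29 to 9.27 TPM in the samples other than Control replicate 1.

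Other junction and keratin genes, 39 in 5 lists of which 37 were tested, were then set beside the members. None passed a limma adjusted p under 0.05. Of 8 other desmosome and envelope plaque genes, 6 were tested and 0 were called at a limma unadjusted p under 0.05 in either direction (median log2 fold change -0.58). Over all genes, 33.4% were higher and 0.909% lower at that threshold. After rescaling 2 were lower (6.31% of all genes). Without Control replicate 1 the log2 fold change of Dsg1a was 1.04. The single values of Dsg1a and Dsg1b are uncertain, since reads of the close copies may have been split between them. Dsg1b had the largest negative value of that list (-1.35, limma adjusted p = 0.339), with 5.31 in Control replicate 1 and 1.53 to 2.45 in the others, and the change was 0.54 without Control replicate 1. Dsc1, the desmocollin of cornifying layers, had the largest positive value (0.03), and Ppl and Evpl, which encode the plakins periplakin and envoplakin of the cornified envelope, were at -0.52 and -0.64. Dsg1c and Dsg4 did not reach the filter.

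Keratins form the filaments that desmosomes anchor. Of the 11 squamous keratins, Control replicate 1 was the highest sample for 8, against 5.58% of all genes. It lay 6.35 log2 units over the median of the others for Krt16, 3.84 for Krt14 and 2.76 for Krt5. It was the lowest for Krt4 (-1.94), a keratin of internal squamous lining. The median log2 fold change of the 11 was -1.44, and -0.06 without Control replicate 1. As deposited, 0 of 11 were called at a limma unadjusted p under 0.05. Over all genes, 33.4% were higher and 0.909% lower at that threshold. Krt16 was at 8.82 in Control replicate 1 and at 1.76 to 2.95 in the others, its log2 fold change (-2.66) was the largest negative value of the list and that of Krt4 (0.97) the largest positive one. Of the 5 simple keratins, Control replicate 1 was the lowest sample for all 5, against 70.2% of all genes. At an unadjusted p under 0.05 (limma), 4 of them were higher in SIGLEC12, against 33.4% of all genes. The largest was Krt18 (1.60, limma adjusted p = 0.101) and the smallest Krt20 (0.64, limma adjusted p = 0.462). Krt8, the main partner of Krt18, was at 5.79 and 7.54 in Control and at 7.82, 7.84 and 8.65 in SIGLEC12, a log2 fold change of 1.44 (limma adjusted p = 0.127) and of 0.56 without Control replicate 1. Reads of the close copies Krt6a and Krt6b, and of Krt14, Krt16 and Krt17, may be shared among them, so their single levels are uncertain. After rescaling 0 simple keratins were higher at that threshold (4.45% of all genes), and 3 squamous keratins were lower (6.31% of all genes).

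Adherens junctions couple actin rather than keratin. Control replicate 1 was the lowest sample for 5 of the 6 genes (70.2% of all genes) and the highest for 0 (5.58%). At a limma unadjusted p under 0.05, 2 were higher in SIGLEC12, against 33.4% of all genes. They were Cdh17 (1.40, the largest of the list) and Ctnnb1 (0.66). Neither was called after rescaling or without Control replicate 1, where Cdh17 was at 0.66 and Ctnnb1 at 0.37. Cdh1, which encodes E-cadherin, was at 5.10 and 5.78 in Control and at 6.21, 5.88 and 6.37 in SIGLEC12, a log2 fold change of 0.71 (limma adjusted p = 0.151), and Vcl had the smallest value (0.05). The list median was 0.55 as deposited and 0.02 after rescaling. Of 9 hemidesmosome genes, which anchor basal cells to the basement membrane, 1 was higher (Cd151, 1.11, named after its value was seen) and 1 lower (Col17a1, -1.19) at an unadjusted p under 0.05. Over all genes, 33.4% were higher and 0.909% lower at that threshold. Col17a1, the collagen of squamous hemidesmosomes, had the smallest log2 fold change of the list (limma adjusted p = 0.127), and Control replicate 1 lay 1.70 above the median of the others for it. It was the only gene of the list that was highest in Control replicate 1, against 5.58% of all genes. Control replicate 1 was the lowest sample for 6 of the 9, against 70.2% of all genes. Without that sample Col17a1 was at -0.51 and Cd151 at 0.97. The list median was 0.67 as deposited and 0.14 after rescaling. After rescaling 1 gene of the list was higher at a limma unadjusted p under 0.05 (Cd151, 0.61), against 4.45% of all genes. The 2 that were lower were Col17a1 (-1.67) and Dst (-0.80), against 6.31% of all genes.

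**Figure D4:**
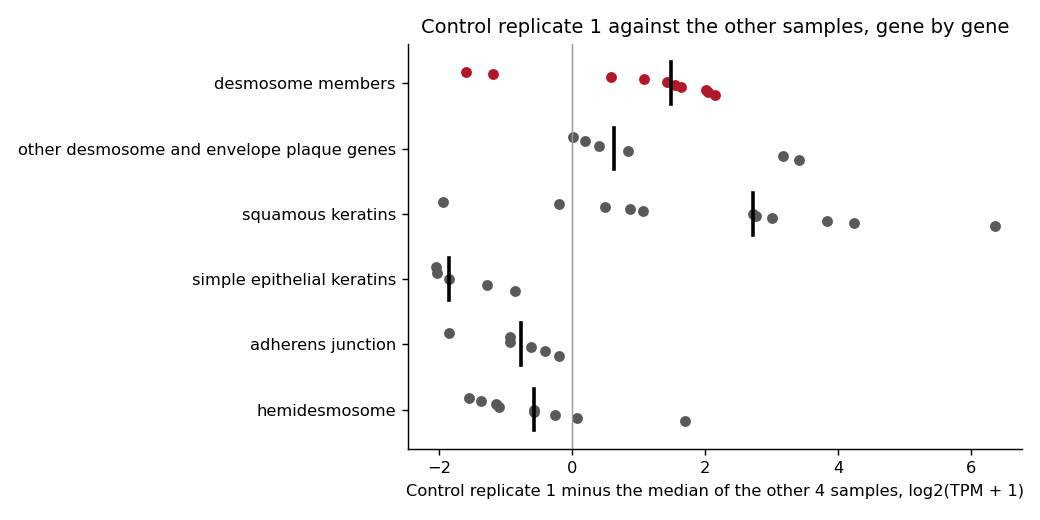
Level in Control replicate 1 minus the median of the other 4 samples (horizontal axis, log2 units) for each tested gene of each list (points), with the list median (black bar). The members lie at 0.58 to 2.14 for 8 genes and at -1.60 and -1.18 for Dsg2 and Pkp2, squamous keratins have a median of 2.71 and simple keratins one of -1.86.

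The genes whose profile over the 5 samples was most like that of Dsp, by root mean square distance between centered log2 values among 2684 protein-coding genes, were Trim29 (0.14 log2 units), Pitx1 (0.20), Rbp2 (0.20), Aqp3 (0.27) and Lypd3 (0.28). For Pkp1, among 8552 genes, they were Lypd3 (0.16), Tent5b (0.23), Rbp2 (0.25), Trps1 (0.27) and Sfn (0.27). Lypd3 encodes a surface protein of stratified epithelium and Sfn the 14-3-3 protein stratifin, and Aqp3 encodes a water and glycerol channel. Each of these genes was highest in Control replicate 1, for example Lypd3 at 5.20 against 3.05 to 3.56 and Trim29 at 4.71 against 2.94 to 3.49. With 5 samples this likeness is a description that rests largely on that sample.

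Markers of other tissue were also summed. Smooth muscle markers (6) summed to 45.3 and 52.0 TPM in Control and 45.7 to 112 TPM in SIGLEC12, fibroblast markers (6) to 8.71 and 10.5 TPM against 17.98 to 57.9 TPM, endothelial markers (5, none past the filter) to 0.789 and 0.883 TPM against 1.75 to 4.44 TPM, and macrophage and dendritic cell markers (6) to 8.59 and 4.04 TPM against 4.83 to 20.7 TPM. Markers of cornified skin (6) summed to 145 and 197 TPM in Control and 106 to 183 TPM in SIGLEC12, so that the sum in Control replicate 1 was within the range of the others. Single genes of that list were not, with Flg, which encodes filaggrin, at 2.31 in Control replicate 1 and 4.76 to 6.76 in the others, and Dsg1a at 4.62 and 0.67 to 2.24. The columnar list had 6 of 11 tested genes higher and 1 lower in SIGLEC12 at a limma unadjusted p under 0.05 (33.4% and 0.909% of all genes). After rescaling 0 of them were higher and 1 lower (4.45% and 6.31% of all genes). The median log2 fold change of the columnar list was 1.06 as deposited and 0.43 without Control replicate 1. The squamous list had 0 of 13 higher and 1 lower as deposited, and 0 higher and 4 lower after rescaling (4.45% and 6.31% of all genes). Their part in the values of the members was not tested.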

How the data were processed

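RNA was extracted from AOM/DSS-induced colon tumors, and paired-end libraries were made with a stranded total RNA kit per the labels, while the study's methods name an mRNA kit. The submitters' processing notes name kallisto 0.45.0 and GRCm38. The deposited table holds log2 values, and 2 to the power of each value minus 1 summed to between 999999 and 1000001 in each column, so the authors' unit was log2(TPM + 1). TPM keeps no read depth. Each row names 1 transcript, for Jup and Pkp2 a non-coding one, and which transcripts a value covers is not stated. The study's methods name technical replicate libraries, and whether columns average them is not stated. All value columns were mapped to a sample (0 were not). The human SIGLEC12 transcript was not analysed here, so the labels were not checked against the transgene. The antisense gene Gm16090 overlaps Dsg2 and was at most at 0.21. Whether counting used strand is not given in the sources used here.

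Genes with TPM of at least 1 in at least 2 samples entered a limma fit (version 3.58.1, R 4.3.3; lmFit, eBayes with trend, 2 groups, two-sided, Benjamini-Hochberg over all tested genes), which was tested on simulated data. The pseudocount of 1 understates changes of low genes. Single members were also compared by an exact two-sided permutation test over 10 splits, whose smallest p is 0.1. Rescaled values were divided so that protein-coding genes (GENCODE release M21, which held 98.45% of the gene identifiers) had the same total. The members and lists were chosen with earlier results of these data known. Named genes were the members, the largest and smallest change of each list, Cdh1, Ctnnb1, Krt5, Krt8, Trp63, and the 5 most alike profiles. One gene that this rule names is not reported here. Others were named after their values were seen. Alternatives were quantile normalization, median-ratio size factors, unfiltered genes, a stricter minimum of TPM 5, a pseudocount of 0.1, and leaving out each sample. Leaving out a Control sample was planned as a value without a call, and the calls of those fits were added. The labels tie no sample to a mouse, so p-values measure only the spread between these samples, which may be technical.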

Additional observations from a re-analysis of the deposited data

How the results depend on the processing

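No paired analysis was made, because the labels give no pairing of Control with SIGLEC12 samples. At the adjusted threshold 0 members passed under each alternative except without Control replicate 4, so that leaving out one sample gave from 0 to 7. Members higher at an unadjusted p under 0.05 numbered 2 as deposited, 2 with a pseudocount of 0.1, 1 with no filter, 1 with a filter of TPM at least 5 (which removed Pkp2 and Dsc3), 0 under quantile normalization, 0 with median-ratio size factors, 0 after rescaling, and 0 to 2 when one sample was left out. Members lower numbered 0 as deposited (0.909%) and 0 when any 1 SIGLEC12 sample was left out (0.725% to 1.09%). They numbered 3 under quantile normalization (5.10%), 2 with median-ratio size factors (6.57%) and 3 after rescaling (6.31%). These 3 scalings set the common shift of all genes to near 0. Rescaled and without Control replicate 1, 0 were higher and 0 lower, and the log2 fold changes of Perp (0.089), Dsc2 (0.31) and Dsc3 (0.055) were positive; this combination and the medians of the other lists without that sample were added after seeing the data. Leaving out one sample changed the sign for Dsp (from -1.55 to 0.041), Pkp3 (-0.42 to 0.27, also positive without SIGLEC12 replicate 3, at 0.07), Perp (-1.47 to 0.51), Dsc2 (-1.96 to 0.72) and Dsc3 (-1.86 to 0.37). It did not for Jup (-1.21 to -0.07), Pkp1 (-2.17 to -0.13), Dsg3 (-1.83 to -0.32), Dsg2 (0.49 to 1.82) and Pkp2 (0.55 to 1.41), and the ends of each range came from leaving out a Control sample. No member changed sign under the scalings, the pseudocount or the filters with all 5 samples. Fits that leave out a Control sample assume that the lone sample varies like the SIGLEC12 samples.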
